A study of Mus musculus with 4 samples.

Results

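The Golgi enzymes that build and finish glycans were examined as a gene set in dendritic cells with and without GOLPH2, a Golgi membrane protein encoded by Golm1. The set holds the genes whose symbols begin with B3gal, B3gnt, B4gal, St3gal, St6gal, St8sia, Galnt, Fut, Mgat, Man1a, Man2a, Gcnt, Chst, Hs3st or Hs6st and that are listed in both deposited comparisons. This gave 85 genes of the 14823 listed in both; 4 further matching genes were listed in unstimulated cells only and 1 in stimulated cells only. Besides glycosyltransferases, the rule takes in the Golgi mannosidases that trim N-glycans and the carbohydrate sulfotransferases. The members were chosen by name, with earlier results of these data known, and not by their values.

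Bone marrow-derived dendritic cells (BMDCs) came from 8-week-old C57BL/6 mice that were wild type (WT) or GOLPH2-/- (KO). Each genotype was left unstimulated, or received IFN-gamma for 16 h followed by 4 h of LPS, a component of bacterial cell walls. There was 1 mRNA library for each of the 4 groups, so no difference has a replicate check, and fewer cells of a type cannot be told apart from less RNA per cell. The labels do not say how many mice gave each culture, whether cells of both states came from the same mice, or which part of Golm1 was removed. The deposited tables hold a ratio of KO to WT and a p-value for each gene but no level per library, so neither the abundance of an enzyme's transcript nor its response to stimulation is given here.

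All ratios below are log2 of KO over WT, centred on the value at which the authors' test has its zero. The ± after a ratio is a counting standard error (SE) worked back from the authors' deposited p-value; it covers the sampling of reads in 1 library against 1 library and not the spread between cultures. A gene is described as called higher or lower where the Benjamini-Hochberg adjusted p, computed over all genes of its table, was under 0.001. Since each side is 1 library, a call says that these libraries differ and not that the conditions do. Golm1 itself was at −2.09 ± 0.098 in unstimulated and −2.00 ± 0.10 in stimulated cells, which is 23.5% and 25.0% of the WT level.

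Glycans are assembled step by step as proteins pass through the Golgi. On N-glycans, mannosidases trim the high-mannose precursor and MGAT enzymes then add GlcNAc branches. On O-glycans, GALNT enzymes attach the first GalNAc to serine or threonine, core enzymes lengthen or branch it, and sialyltransferases and fucosyltransferases cap the chains. The sulfotransferases of the set include enzymes that modify chondroitin and heparan sulfate chains on proteoglycans. In leukocytes these structures shape selectin, Siglec and galectin binding, and the sialylation of dendritic cells is known to change as they mature.

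In both states the same 6 members were called in the same direction. Galnt10, Chst15 and St3gal1 were lower in the KO library, and Hs3st3b1, Mgat2 and St8sia4 were higher. Their products act at different steps: initiation and sialic acid capping of O-glycans (Galnt10, St3gal1), N-glycan branching (Mgat2), polysialic acid synthesis (St8sia4), chondroitin sulfation (Chst15) and heparan sulfation (Hs3st3b1). The 6 are 7.06% of the members, and 5.19% of all genes listed in both tables were called in the same direction in both. By direction, 3 members (3.53%) were lower, against 2.23% of all genes, and 3 (3.53%) higher, against 2.96%. Over the genes whose counting SE in both states was no larger than 50 reads against 50 reads would give, the shares were 10% of 60 members and 6.97% of all. With Bonferroni in place of Benjamini-Hochberg adjustment, 3 of the 6 (Galnt10, Hs3st3b1 and St3gal1) were called in both states, which is 3.53% of members against 3.07% of all genes. With ratios as deposited, without centring, 5 of the 6 were called in the same direction in both states. That is 5.88% of members against 4.41% of all genes, and St3gal1 is the one that drops out.

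The bases upstream of 3 of these genes are shown because the genes were called in the same direction in both pairs of libraries. RefSeq windows of GRCm38.p6 give the 250 bases before an annotated transcript start, and for Galnt10, Hs3st3b1 and Mgat2 that start is the outermost one of the gene. They are printed 5′ to 3′ on the gene's strand, for Mgat2 only the 74 bases next to the start, since the rest is exon of the neighbouring Rpl36al. The windows of Chst15 and St8sia4 belong to starts inside the gene, 6306 and 123 bases from its outermost end, and are not printed. St3gal1 lies at chromosome 15, 67102875 to 67176946. Capitals mark matches, on either strand, to 4 motifs: the interferon-gamma activated site GAS (TTCNNNGAA), the interferon regulatory factor element IRF (AANNGAAA), the Golgi stress response element GASE (ACGTGGC) and the GC box (GGGCGG). The letters of GAS and IRF can overlap, which no match shown does.
Galnt10, chr11:57645192-57645441, plus strand: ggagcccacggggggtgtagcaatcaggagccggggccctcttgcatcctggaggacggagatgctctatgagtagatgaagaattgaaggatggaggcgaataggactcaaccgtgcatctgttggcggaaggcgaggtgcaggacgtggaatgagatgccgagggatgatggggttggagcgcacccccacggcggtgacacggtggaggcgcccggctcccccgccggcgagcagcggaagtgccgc
Hs3st3b1, chr11:63922285-63922534, minus strand: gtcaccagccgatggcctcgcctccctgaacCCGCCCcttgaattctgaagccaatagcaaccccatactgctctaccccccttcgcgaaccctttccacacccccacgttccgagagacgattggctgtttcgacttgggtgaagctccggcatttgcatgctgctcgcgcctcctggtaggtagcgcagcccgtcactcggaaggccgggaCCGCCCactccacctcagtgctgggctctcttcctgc
Mgat2, chr12:69184084-69184157, plus strand: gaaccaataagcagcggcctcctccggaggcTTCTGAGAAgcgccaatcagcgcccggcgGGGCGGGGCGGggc

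Hs3st3b1 and Mgat2 each held 2 GC boxes and Galnt10 none. Mgat2 also held a GAS match (TTCTGAGAA, beginning 43 bases before the start). No IRF or GASE match was in the letters shown. Across the 65 members with a window before some annotated transcript start (the first listed for each gene), 70.8% held a GC box, 16.9% an IRF match, 4.62% a GAS match and 1.54% a GASE match. Over the first windows of all 27025 RefSeq genes in the table the shares were 32.9% for the GC box, 21.6% for IRF, 7.18% for GAS and 2.04% for GASE. Over the 10962 genes that are listed in both deposited comparisons and have a window, they were 56.7%, 16.5%, 6.2% and 2.97% in the same order. A match is a description of the letters and not a binding site.

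By role, O-GalNAc initiation was examined first. Over all genes 8.96% were called in unstimulated and 11.9% in stimulated cells, which can be set beside the counts of each role. The roles have few members, so such counts are no trait of a role. Galnt10, which encodes one of the polypeptide GalNAc-transferases, was at −0.42 ± 0.065 in unstimulated cells (adjusted p 4.80e-09, Benjamini-Hochberg) and −0.47 ± 0.046 in stimulated cells (9.05e-23). These ratios are 74.9% and 72.2% of the WT level, with 95% counting intervals of 68.6% to 81.9% and 67.8% to 76.9%. Galnt10 had the lowest ratio in each state among the members within the 50-read limit, that is, with a counting SE of 0.29 or less, as 50 reads against 50 reads would give. Galnt9, another enzyme of this family, was called higher in unstimulated cells at 0.46 ± 0.12 and was not called in stimulated cells at 0.41 ± 0.20. The stimulated value is close to the unstimulated one, with a wider counting error. The other 10 listed members of the family were not called in either state. Galnt12 was the highest of the family in stimulated cells within the 50-read limit, at 0.44 ± 0.22, beside −0.05 ± 0.19 in unstimulated cells.

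The next step on most O-glycans is core 1 synthesis, which is carried out by C1galt1 with its chaperone C1galt1c1, neither of which is a member. C1galt1 was called lower in unstimulated cells (−0.42 ± 0.099) and was not called in stimulated cells (−0.17 ± 0.10). C1galt1c1 was not called in either state (−0.17 ± 0.080 and 0.07 ± 0.085). Core and I branching by the Gcnt family had 4 members and 0 calls in both states. Gcnt1, which makes core 2 branches, was at −0.05 ± 0.083 in unstimulated and −0.26 ± 0.12 in stimulated cells. Gcnt7 lay at 1.81 ± 0.72 without stimulation and at −0.19 ± 0.80 with it, so its value is not fixed by these libraries.

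Among sialyltransferases, which cap glycans with sialic acid, members were called in both directions. St3gal1, which caps the galactose of core 1 O-glycans in alpha-2,3 linkage, was at −0.18 ± 0.014 in unstimulated cells (adjusted p 1.16e-34, Benjamini-Hochberg) and −0.21 ± 0.012 in stimulated cells (7.53e-64). It had the smallest counting SE of all members in both states. Its level was 88.2% of WT (95% counting interval 86.5% to 89.9%) and 86.3% (84.9% to 87.8%), so the difference was small and was the best determined of the set. Before centring, the unstimulated ratio of St3gal1 in the authors' deposited table was 0.01, so its direction in that state rests on the zero point. The stimulated ratio was −0.25 before centring. St3gal4, another alpha-2,3-sialyltransferase and one that takes part in making selectin ligands, was called higher in unstimulated cells (0.49 ± 0.077) and not in stimulated cells (0.24 ± 0.10).

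St6galnac4, which adds alpha-2,6-linked sialic acid to sialylated core 1 structures, was called higher in unstimulated cells at 0.27 ± 0.041 and was at 0.09 ± 0.041 in stimulated cells without a call. St6gal1, which makes the alpha-2,6-sialylated N-glycans that Siglec CD22 binds, was called higher in stimulated cells only, at 0.19 ± 0.045 beside 0.05 ± 0.031. St8sia4, a polysialyltransferase whose product on CCR7 is known to aid dendritic cell migration, was called higher in both states at small size, with 0.09 ± 0.024 and 0.16 ± 0.025. In unstimulated cells its adjusted p (0.00099, Benjamini-Hochberg) was the nearest to the threshold among the called members. St8sia1, the GD3 ganglioside synthase, was not called, at −0.23 ± 0.20 and −0.48 ± 0.32. In total 4 of 14 listed sialyltransferases were called in unstimulated cells (3 higher, 1 lower) and 3 in stimulated cells (2 higher, 1 lower). Over all genes 8.96% and 11.9% were called in the 2 states. The family median was 0.10 and 0.08. The highest ratio of the family, St6galnac5 at 3.84 ± 1.49 in stimulated cells, had a large counting SE and was not called.

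The ratios of N-glycan enzymes were small. Mgat2, the GlcNAc-transferase needed for complex N-glycans, was called higher in both states, at 0.17 ± 0.043 (112.7% of WT, 95% counting interval 106.3% to 119.5%) and 0.20 ± 0.045 (114.7%, 107.9% to 121.9%). Mgat4b, which adds a further branch, was called lower in unstimulated cells at −0.12 ± 0.025 and was at 0.04 ± 0.023 in stimulated cells; before centring its unstimulated value was 0.07. Man1a, a Golgi mannosidase that acts early in trimming, was at −0.09 ± 0.033 without a call in unstimulated cells and was called higher in stimulated cells at 0.17 ± 0.030. The other 7 of 10 listed N-glycan genes, among them Mgat1 and Mgat5, were not called in either state. Of the 9 N-glycan members within the 50-read limit in both states, all had ratios between −0.17 and 0.20.

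Chain extension, the largest family with 24 listed members, had 1 call in unstimulated and 0 in stimulated cells. Over all genes 8.96% and 11.9% were called in the 2 states. B4galt5, which makes lactosylceramide and thereby starts most glycosphingolipids, was called higher in unstimulated cells at 0.19 ± 0.033 and lay at −0.10 ± 0.033 in stimulated cells without a call. B3gntl1 (0.42 ± 0.12 in unstimulated cells) and B3galnt1 (0.41 ± 0.11 in stimulated cells) are given because they lay just outside the threshold, with adjusted p of 0.0041 and 0.0013 (Benjamini-Hochberg). B4galt2 lay at 1.55 ± 0.87 without stimulation and at 0.45 ± 0.77 with it, and was not called. Of 5 fucosyltransferases, 0 were called in either state, and within the 50-read limit their ratios reached from −0.11 to 0.00 in unstimulated and −0.19 to 0.08 in stimulated cells. Fut8, which adds core fucose to N-glycans, was the lowest of these in both states.

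Sulfotransferases carried the largest ratios among called members. Chst15, which adds a second sulfate to chondroitin sulfate to give the E unit, was at −0.31 ± 0.076 in unstimulated cells (80.5% of WT, 95% counting interval 72.6% to 89.3%) and −0.38 ± 0.071 in stimulated cells (76.7%, 69.7% to 84.4%). Chst3 and Chst7, which both place sulfate on the 6 position of chondroitin GalNAc, were called higher in unstimulated cells. Chst7 was at 0.61 ± 0.13 there and at 0.21 ± 0.14 in stimulated cells without a call. Chst3 was at 0.56 ± 0.11 there and at 0.41 ± 0.12 in stimulated cells without a call. Chst15 thus lay on the opposite side of 0 from Chst3 and Chst7 in each state.

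Hs3st3b1, which adds a rare sulfate to the 3 position of heparan sulfate glucosamine, was called higher in both states. Its ratio was 0.39 ± 0.053 in unstimulated cells (131.3% of WT, 122.2% to 141.0%) and 0.61 ± 0.077 in stimulated cells (152.5%, 137.3% to 169.4%). It has a close paralog, Hs3st3a1, listed in stimulated cells only at 1.04 ± 1.72. How reads that fit both genes were treated is not stated in any source used here. In total 4 of 16 listed sulfotransferases were called in unstimulated cells (3 higher, 1 lower) and 2 in stimulated cells (1 higher, 1 lower). Over all genes 8.96% and 11.9% were called in the 2 states, and the stimulated count is near that share. Chst2, Chst8 and Chst13 had larger ratios that were not called: Chst2 was at 2.39 ± 1.30 and 2.36 ± 1.36, Chst8 at −0.19 ± 1.45 and −2.29 ± 1.36, and Chst13 at 1.98 ± 0.99 and −2.29 ± 1.36. The sign of Chst13 changed between states, and its counting errors were large in both.

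**Figure D1:**
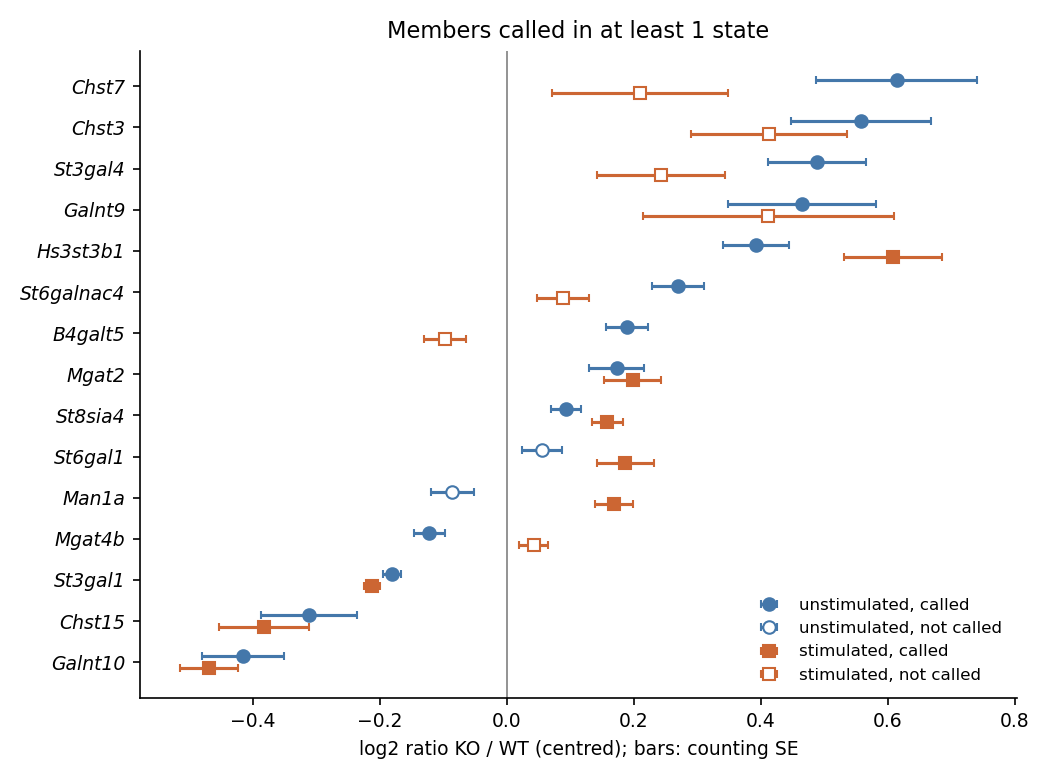
Centred log2 ratio of KO over WT for the 15 members called in at least 1 state, in unstimulated (circles) and stimulated cells (squares). Filled symbols are called, open symbols are not, and bars are 1 counting SE; each symbol is 1 library against 1 library. Galnt10, Chst15 and St3gal1 lie below 0 and Hs3st3b1, Mgat2 and St8sia4 above 0 with filled symbols in both states.

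**Figure D2:**
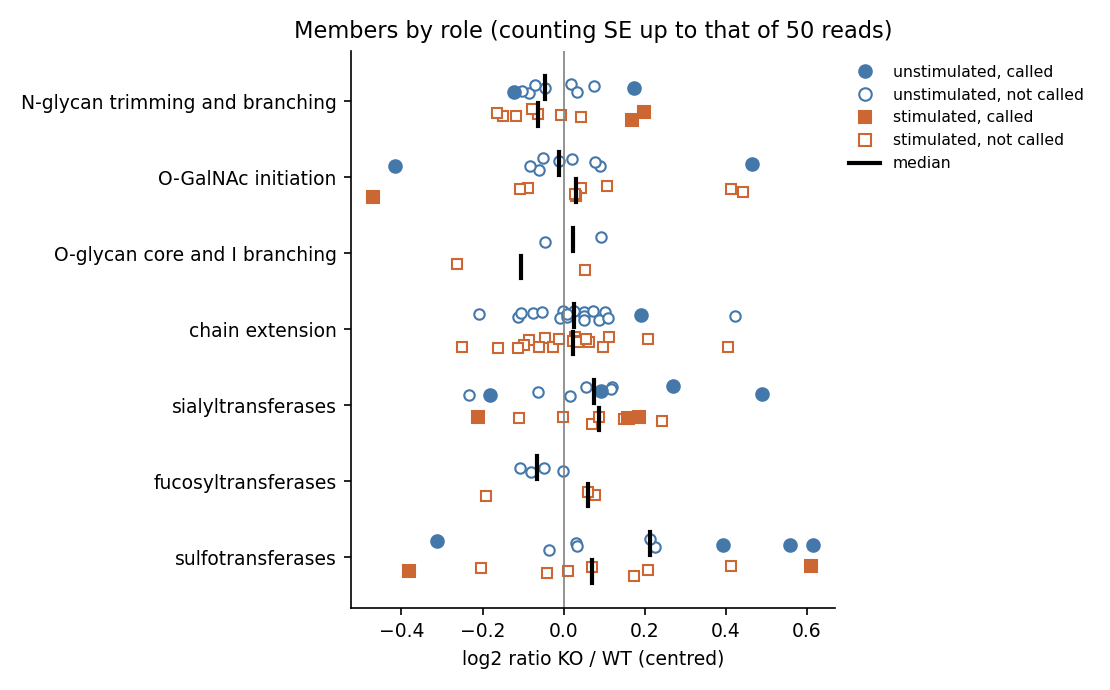
Centred log2 ratio of KO over WT of members with a counting SE up to that of 50 reads in each library, 1 row per role, with circles for unstimulated and squares for stimulated cells. Filled symbols are called and black lines are medians of the plotted members. Sulfotransferases spread from Chst15 at −0.31 to Chst7 at 0.61 in unstimulated cells, while the N-glycan genes stay between −0.17 and 0.20 in both states.

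Exons of some named members overlap other genes in the GENCODE M21 annotation, and no source used here states whether the counting used strand. Opposite-strand overlap covered 17.9% of the exon bases of Chst15 (with Gm10584) and 14.1% of those of St3gal4 (with 4930581F22Rik). It covered 4.07% for St6gal1, 2.22% for Mgat2 and 1.52% for Man1a, and there was none for St3gal1, Galnt10, Hs3st3b1, St8sia4, Chst3, Chst7, Galnt9, B4galt5, Mgat4b and St6galnac4. B4galt2, which was not called, shared 28.2% of its exon bases, with Ccdc24 on the same strand and Slc6a9 on the opposite one. Whether overlapping transcripts add to these ratios was not tested.

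In unstimulated cells 13 of 85 members (15.3%) were called, against 8.96% of all 15394 genes in that table. By direction, 9 were higher (10.6% of members, against 4.7% of all genes) and 4 lower (4.71% against 4.27%). The share of lower calls was thus near that of all genes, and the share of higher calls was above it. No call fell among members outside the 50-read limit. Among the 62 members within that limit 9 (14.5%) were called higher, against 6.38% of such genes, and 4 (6.45%) lower, against 5.79%. With ratios as deposited the split of the 13 calls was 11 higher (12.9% of members, against 6.56% of all genes on that scale) and 2 lower (2.35%, against 2.4%). The median ratio of the members was 0.03, and that of all genes was 0.00. Within 1.2-fold lay 70.6% of the members and 74% of all genes.

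In stimulated cells 8 of 85 members (9.41%) were called, against 11.9% of all 15310 genes. Of these, 5 were higher (5.88%, against 5.36%) and 3 lower (3.53%, against 6.54%). The share of higher calls lay near that of all genes, and the share of lower calls was below it. Among the 60 members within the 50-read limit, 5 (8.33%) were called higher, against 7.24%, and 3 (5%) lower, against 8.93%. The median was 0.03 over members and 0.01 over all genes. Differences were small in size. At 1.5-fold or more, Chst7 was the single member called in unstimulated cells (1.18% of members, against 0.708% of all genes) and Hs3st3b1 the single one in stimulated cells (1.18%, against 1.02%). No member reached that size with a call in both states. The authors' deposited table of unstimulated cells marked Chst3, Chst7, Galnt9 and St3gal4 as differentially expressed, at deposited log2 ratios of 0.75, 0.81, 0.66 and 0.68, and the authors' deposited table of stimulated cells marked 0 members. Over all genes these tables marked 161 (1.05%) and 159 (1.04%), beside 4 and 0 of the 85 members.

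**Figure D3:**
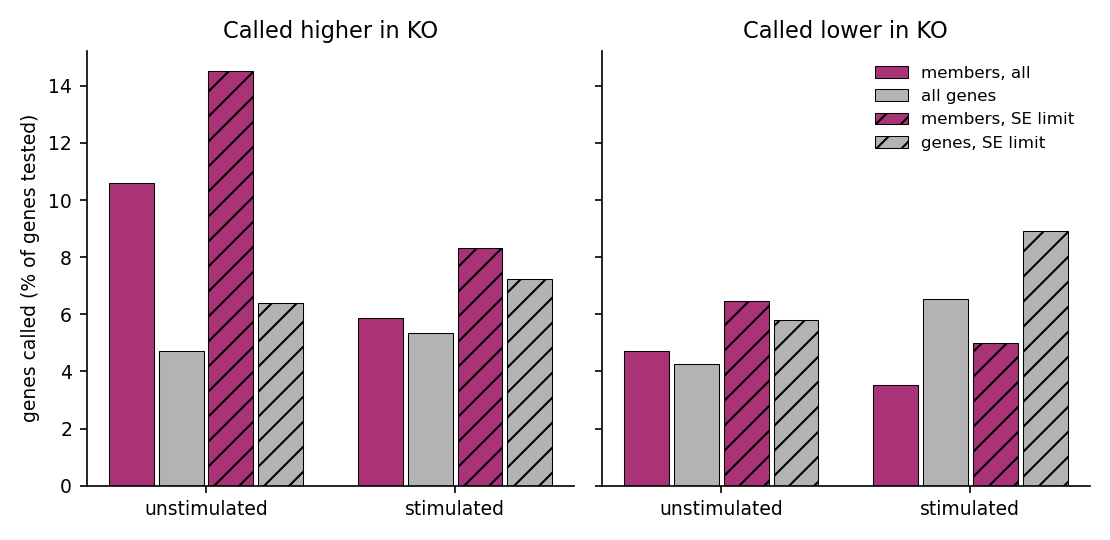
Percent of genes called higher (left) and lower (right) in the KO library, for members (purple) and all genes (grey), over all genes tested (plain) and over those with a counting SE up to that of 50 reads (hatched). In unstimulated cells 10.6% of members and 4.7% of all genes were called higher; bars rest on 1 library per group and carry no error.

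The states were then set side by side. Their ratios come from separate libraries. In all, 15 members were called in at least 1 state: 6 in both, 7 in unstimulated cells only and 2 in stimulated cells only, with 0 called in opposite directions. The 6 are 7.06% of members, against 5.19% of all genes. The counts for calls in 1 state only, and those that follow from them, were not made over all genes. They are therefore not read as a trait of the members. Of the 9 called in 1 state, 6 had the same sign in both states. Being called in 1 state only favours genes with unequal ratios, which can raise the next count. The differences in ratio, stimulated less unstimulated, exceeded 2 counting errors for 6 of these 9: B4galt5 (−0.29 ± 0.047), Man1a (0.25 ± 0.045), Mgat4b (0.16 ± 0.034), St6galnac4 (−0.18 ± 0.058), St6gal1 (0.13 ± 0.055) and Chst7 (−0.41 ± 0.19). Those of Chst3 (−0.15 ± 0.17), Galnt9 (−0.05 ± 0.23) and St3gal4 (−0.25 ± 0.13) did not, so that a call in 1 state only shows no difference between states for these. Of the 6 members called in both states, Hs3st3b1 alone had a difference beyond 2 counting errors (0.22 ± 0.093). With 1 library per group none of these differences was tested, and each depends on the zero points of both tables. Across the 60 members within the 50-read limit in both states, Pearson's r between the states was 0.60 and Spearman's rho 0.45, beside 0.50 and 0.45 over 10979 such genes. These describe genes that share the same 4 libraries and are no test.

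**Figure D4:**
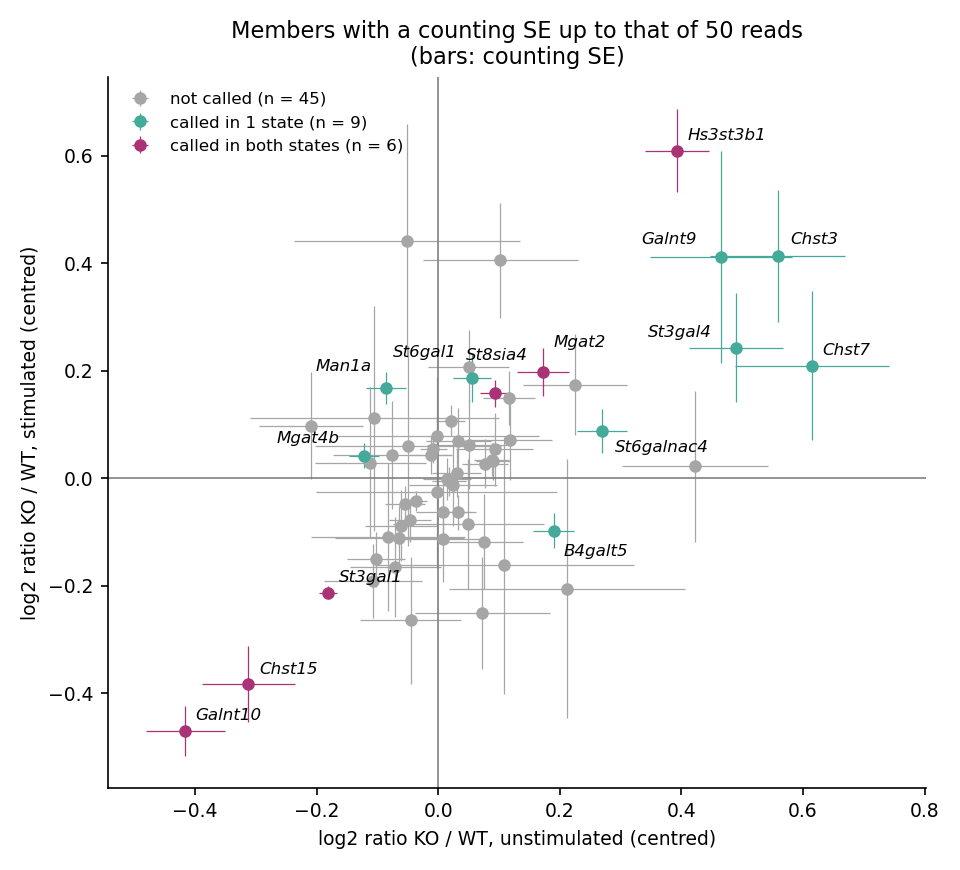
Centred log2 ratio of KO over WT in unstimulated (x axis) against stimulated cells (y axis) for the 60 members within the 50-read limit in both states, 1 point per gene with bars of 1 counting SE. The 6 members called in both states lie in the lower left (Galnt10, Chst15, St3gal1) and upper right (Hs3st3b1, Mgat2, St8sia4), and B4galt5 and Man1a lie on opposite sides of 0 in the 2 states.

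Enzymes that work beside the members were described from lists chosen with earlier results of these data known, though not by their ratios. Their counts can be set beside the shares of all genes called higher (4.7% and 5.36%) and lower (4.27% and 6.54%) in the 2 states. Among 16 listed core and Notch-type glycosyltransferases, 1 was called higher and 1 lower in unstimulated cells, and 3 higher and 0 lower in stimulated cells. Lfng, which extends O-fucose on Notch, was higher in both states (0.20 ± 0.040 and 0.29 ± 0.048), and Man1c1 (0.25 ± 0.055) and B3gat3 (0.21 ± 0.049) were higher in stimulated cells. Glycosaminoglycan genes had 1 of 21 called higher in unstimulated cells, and 3 of 22 higher and 1 lower in stimulated cells. Ndst1, which begins heparan sulfate modification, was called higher in both (0.32 ± 0.026 and 0.14 ± 0.030), as Hs3st3b1 was. Csgalnact1, which starts chondroitin chains, was called higher in stimulated cells at 0.50 ± 0.089, and Extl3, which starts heparan sulfate chains, lower at −0.24 ± 0.050.

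The supply of donor sugars and sulfate had 19 listed genes. Uxs1, which makes UDP-xylose, was called higher in unstimulated cells (0.31 ± 0.050), and Gfpt1, the entry enzyme of hexosamine synthesis, was called lower in stimulated cells (−0.15 ± 0.037). Of 14 Golgi transporters of donors 0 were called in unstimulated cells, and Slc35b3, which carries the sulfate donor, was called higher in stimulated cells (0.26 ± 0.055). In the list for enzyme retention and Golgi tethering, 3 of 12 were called lower in unstimulated cells and 1 in stimulated cells, with 0 higher; over all genes 4.27% and 6.54% were called lower, and the single stimulated call is near that share. These were Golph3 (−0.18 ± 0.028), which helps hold glycosyltransferases in the Golgi, its paralog Golph3l (−0.16 ± 0.033, and −0.13 ± 0.034 in stimulated cells) and Tmem165 (−0.21 ± 0.039), which supplies manganese to Golgi enzymes. As deposited, the unstimulated ratios of Golph3 and Golph3l were above 0, at 0.01 and 0.03, and that of Tmem165 was −0.02. None of the 8 subunits of the COG tethering complex was called. Among 9 listed enzymes that remove sugars, 0 were called in unstimulated cells, and the fucosidases Fuca1 (0.12 ± 0.029) and Fuca2 (0.14 ± 0.033) were called higher in stimulated cells.

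Markers of cell content were counted in the same way; over all genes 4.7% were called higher and 4.27% lower in unstimulated cells, and 5.36% and 6.54% in stimulated cells. Of 11 listed dendritic cell markers, 6 were called higher and 0 lower in unstimulated cells, and 5 higher and 1 lower in stimulated cells. All 11 lay within the 50-read limit, where 6.38% and 7.24% of genes were called higher. Itgax, which encodes CD11c, was at 0.32 ± 0.015 and 0.29 ± 0.017. Higher calls in unstimulated cells ran from Cd74 (0.04 ± 0.0057) to Clec10a (0.84 ± 0.11). The lower call was Ciita (−0.30 ± 0.045), and H2-Aa, H2-Eb1 and Zbtb46 were below 0 in both states without a call. Of 12 macrophage and monocyte markers, 7 were higher and 1 lower, then 5 higher and 1 lower. Of 12 fibroblast and stromal markers, 5 were higher and 0 lower, then 7 higher and 1 lower, with ratios from −0.43 to 3.06 and from −0.74 to 6.27. Neutrophil markers had 2 of 8 called lower in unstimulated and 1 of 6 in stimulated cells, mast cell and granulocyte markers 1 of 5 and 1 of 3 lower, and endothelial markers 1 of 6 and 2 of 6 lower. Lymphocyte markers had 1 of 12 called higher in each state, and erythroid markers 0 of 1. Levels are not in the tables, so how near 0 a marker lies can be judged only roughly, from its counting SE. Within the 50-read limit lay all 12 macrophage and monocyte markers in each state. For stromal markers it was 8 of 12 in each state, and for endothelial markers 4 of 6. Lymphocyte markers had 4 of 12 within it in unstimulated and 3 of 12 in stimulated cells, and the erythroid marker was outside. Neutrophil markers had 5 of 8 and 5 of 6, mast cell and granulocyte markers 2 of 5 and 2 of 3. The part of cell content in the members' ratios was not tested.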

How the data were processed

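Messenger RNA of 4 BMDC libraries was sequenced after a strand-specific preparation, per the labels' protocols. The submitters' processing notes name FastQC 0.10.1, HTSeq 0.6.0 and the build mm10; no source used here states the aligner, annotation, scaling or test. The authors deposited 2 tables of KO against WT with a log2 fold change and a −log10 p-value per gene, per the file headers and values. Depth per library is unknown.

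The deposited log2 ratios were reduced by their median over genes with p above 0.99 (0.19 in unstimulated, −0.04 in stimulated cells). The counting SE is the centred ratio divided by the normal deviate of the two-sided p. This SE at 50 reads in each library is 0.29. Calls used Benjamini-Hochberg adjustment over each whole table at 0.001, replaced in alternatives by 0.05, Bonferroni, a 1.5-fold size, other centrings, the 50-read limit, or adjustment over shared genes. Members, roles and lists were chosen with earlier results of these data known. Genes named are St3gal1, Golm1, every called member, the 3 highest and 3 lowest members within the 50-read limit, up to 4 members not called with the largest ratios per state, and up to 4 called genes of each other pathway list, fewer where fewer were called; markers are mostly given as counts. A few further genes, near the threshold or next to a named one in a pathway, were added after their values were seen. Positions and upstream windows are from RefSeq GRCm38.p6, where 84 of 85 members matched 1 position. The centring, SE and calls were run on simulated counts with read sampling only, whose p-values came from the same normal formula. The SE was compared there only for genes without a large p, so the SE of ratios near 0 was not checked. The simulation checks the code and cannot show whether the formula holds for the authors' test, which is not stated. Python 3.11.15, numpy 2.4.6, scipy 1.17.1 and pandas 2.3.3 were used.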

Additional observations from a re-analysis of the deposited data

Results flagged for a closer look

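Among members called in at least 1 state, 2 had ratios more than 2 counting errors from 0 on opposite sides in the 2 states. This criterion was set after the values were seen and was not counted over all genes. Mgat4b also changed sign, from −0.12 ± 0.025 to 0.04 ± 0.023, but its stimulated ratio lay within 2 counting errors of 0. B4galt5 differed by −0.29 (stimulated less unstimulated), from 0.19 ± 0.033 to −0.10 ± 0.033. Man1a differed by 0.25, from −0.09 ± 0.033 to 0.17 ± 0.030. Each state has 1 library per genotype, so none of these differences was tested. With ratios as deposited B4galt5 was still on opposite sides, at 0.38 and −0.13, and Man1a was above 0 in both, at 0.11 and 0.13.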

How the results depend on the processing

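With ratios as deposited, St3gal1 in unstimulated cells was at 0.011 and Mgat4b at 0.069, both reversed, since all ratios of that table then lie 0.19 higher; the median over members became 0.22, and the calls split into 11 higher and 2 lower. On that scale 5 members (5.88%, against 4.41% of all genes) were called in the same direction in both states, without St3gal1. At an adjusted p under 0.05, 20 members (23.5%, against 17.9% of all genes) were called in unstimulated and 17 (20%, against 21.9%) in stimulated cells. With a size of 1.5-fold, 1 and 1 were called and 0 in both states. With Bonferroni adjustment 6 (7.06%, against 5.22%) were called in unstimulated cells, and 3 (3.53%, against 3.07%) in the same direction in both states, namely Galnt10, Hs3st3b1 and St3gal1. Over the 46 ratios of the other named members in the 2 states, Bonferroni ended 9 calls and the 0.05 threshold added 3. Centring on the median gene, the 50-read limit, adjustment over shared genes, and counting members listed in either table (chosen after seeing the data) left each count of calls within 1.5 times its value. No paired analysis was possible because each group has 1 library, and for the same reason no library could be left out. Members with a counting SE above that of 50 reads, 23 in unstimulated and 25 in stimulated cells, had 0 calls. Among all genes outside that limit 12 and 25 were called, each with a ratio of at least 1.26 and 1.17 in size, so smaller differences were not called at this precision.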
